A study of Mus musculus with 21 samples.

Results

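The Hox cofactor genes Meis1, Meis2, Meis3, Pbx2, Pbx3, Pbx4, Pknox1 and Pknox2 were followed across 7 groups of embryonic mouse RNA-seq libraries. These 8 genes were chosen by name among the 24594 genes of each count table, with earlier results of these data known. All but Pbx2 could be measured. Expression is given as CPM, read counts scaled to the size of the library and by TMM, a trimmed-mean factor.

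Meis, Pbx and Pknox proteins are homeodomain transcription factors of the TALE class, named for an extended loop in the homeodomain. Pbx proteins bind DNA together with many Hox proteins, and Meis and Pknox proteins bind Pbx through a separate domain, so that complexes of a Hox, a Pbx and a Meis or Pknox protein can form on one element. In the neural crest of the pharyngeal arches, Hoxa2 is known as the main Hox determinant of second-arch identity.

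The study examined long-range enhancers of Hoxa2 in cranial neural crest cells (CNCCs) of the face and the pinna, the external ear. One table held 12 libraries of pharyngeal arches 2 and 3 (PA2 and PA3) of E10.5 embryos, dissected from wild-type (WT) embryos or from HIRE1del/del embryos, in which both copies of the enhancer HIRE1 were removed by CRISPR/Cas9. The other held 9 libraries of WT crest cells carrying Wnt1::Cre;ROSARFP, a reporter in which Cre driven by Wnt1 marks the crest with red fluorescence. These cells were sorted from E10.5 PA2, E12.5 pinna and E14.5 pinna. There were 7 groups of 3 biological replicates. The mice were of mixed background and the sexes of the embryos were pooled. Tissue was dissociated with trypsin at E10.5 and E12.5 and with papain at E14.5, so enzyme and stage cannot be told apart in comparisons with E14.5. The protocol gives sorting for the reporter embryos, and none was stated for the dissected HIRE1 arches, although the labels call all samples crest cells.

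Total counts per library ran from 25804446 to 32210131 in the arch table and from 25814151 to 49058941 in the sorted series. Summed levels of the 5 erythroid markers ran from 1346 to 2937.5 CPM in the PA2 libraries of the arch table, from 10764 to 21537 CPM in its PA3 libraries and from 0.883 to 7.17 CPM in the sorted series. Those of the 5 epithelial markers were 194 to 245 CPM, 403 to 659 CPM and 6.82 to 21.0 CPM. Markers of cells other than crest were thus present in the arch libraries. In such bulk samples, fewer cells of one type and less RNA per cell cannot be told apart.

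The members lie on 6 chromosomes of GRCm38, the build used by the authors. Meis1 (ENSMUSG00000020160) spans chr11:18879817-19018985 on the minus strand, Meis2 (ENSMUSG00000027210) chr2:115863064-116065839 on the minus strand and Meis3 (ENSMUSG00000041420) chr7:16175090-16186504 on the plus strand. Pbx2 (ENSMUSG00000034673) spans chr17:34591266-34597400 on the plus strand, Pbx3 (ENSMUSG00000038718) chr2:34171457-34373142 on the minus strand and Pbx4 (ENSMUSG00000031860) chr8:69832491-69872292 on the plus strand. Pknox1 (ENSMUSG00000006705) spans chr17:31564734-31607693 on the plus strand and Pknox2 (ENSMUSG00000035934) chr9:36890982-37147407 on the minus strand. Exons of antisense transcripts overlap 896 exon bases of Meis1 and 155 of Pknox1 in GENCODE, and a same-strand transcript overlaps 1029 exon bases of Meis1. The labels call the libraries unstranded and also name a total RNA kit, while the authors counted reads in 1 orientation, opposite to the gene. How the overlapping transcripts entered the counts of Meis1 and Pknox1 is therefore not known.

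The promoters of Meis1 and Meis2 are shown because these are the members that were lower together in HIRE1del/del PA2. Each window holds 250 bases before and 50 bases after the transcript start of RefSeq on GRCm38.p6, read in the direction of transcription, at chr11:19018920-19019219 and chr2:116064570-116064869, both on the minus strand. Capitals mark TGAT or its reverse complement ATCA, the core recognised by Pbx.
Meis1: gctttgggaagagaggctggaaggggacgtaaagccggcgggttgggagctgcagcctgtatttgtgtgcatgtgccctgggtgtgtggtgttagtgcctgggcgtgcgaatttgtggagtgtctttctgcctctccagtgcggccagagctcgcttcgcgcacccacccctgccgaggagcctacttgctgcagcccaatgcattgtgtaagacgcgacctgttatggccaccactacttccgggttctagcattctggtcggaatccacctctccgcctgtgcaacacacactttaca
Meis2: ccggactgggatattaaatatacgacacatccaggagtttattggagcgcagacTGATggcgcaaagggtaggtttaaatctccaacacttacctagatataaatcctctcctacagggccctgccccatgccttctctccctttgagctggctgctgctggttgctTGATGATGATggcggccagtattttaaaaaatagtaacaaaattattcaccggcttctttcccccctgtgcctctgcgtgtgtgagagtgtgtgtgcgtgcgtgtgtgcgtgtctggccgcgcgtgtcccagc
Meis2 held 4 matches and Meis1 none, where 73.5% of 27025 promoter windows of the same length held at least 1. The longer site TGATNNAT, which contains that core and is bound by Pbx with Hox proteins, was in neither window and in 9.04% of all windows. The Meis site TGACAG was in neither window and in 19.3% of all windows, with both strands searched. Windows were found for 5 of the 8 members. A match is a description of the letters, and its absence says only that these letters are not in this window.

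Meis1 and Meis2 were the most abundant members per length in every group. On the RPKM scale, which divides CPM by exon length in kilobases and allows levels of different genes to be compared, WT PA2 held 35.3 ± 1.05 RPKM of Meis2 (SD, n = 3 here and for every group) and 31.2 ± 2.70 RPKM of Meis1. Pbx3 followed at 15.4 ± 0.853 RPKM. Meis3 was at 7.00 ± 0.129 RPKM and Pknox1 at 6.75 ± 0.510 RPKM, whose ranges overlapped, and Pknox2 was at 4.06 ± 0.577 RPKM. Pbx4 was lowest, at 0.953 ± 0.188 RPKM, from 43 to 71 counts per library. Meis2 stood at percentile 89.68 of the RPKM of all genes tested in WT PA2, Meis3 at percentile 52.1 and Pbx4 at percentile 18.67.

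In sorted crest the same order held at E10.5 for Meis2, Meis1 and Pbx3, followed there by Pknox1 at 8.52 ± 0.185 RPKM, Meis3 at 5.70 ± 0.659 RPKM, Pknox2 at 4.33 ± 0.102 RPKM and Pbx4 at 0.976 ± 0.127 RPKM. At E14.5 the mean of Meis1 was 57.3 ± 1.57 RPKM and that of Meis2 56.2 ± 3.33 RPKM, with overlapping ranges. Pknox1 came next, at 11.1 ± 0.682 RPKM, above Pbx3 at 8.53 ± 1.29 RPKM and Meis3 at 7.75 ± 0.822 RPKM, although the lowest Pknox1 library lay close to the highest Pbx3 library. Pknox2 at 0.578 ± 0.116 RPKM and Pbx4 at 0.528 ± 0.048 RPKM overlapped at the bottom.

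**Figure D1:**
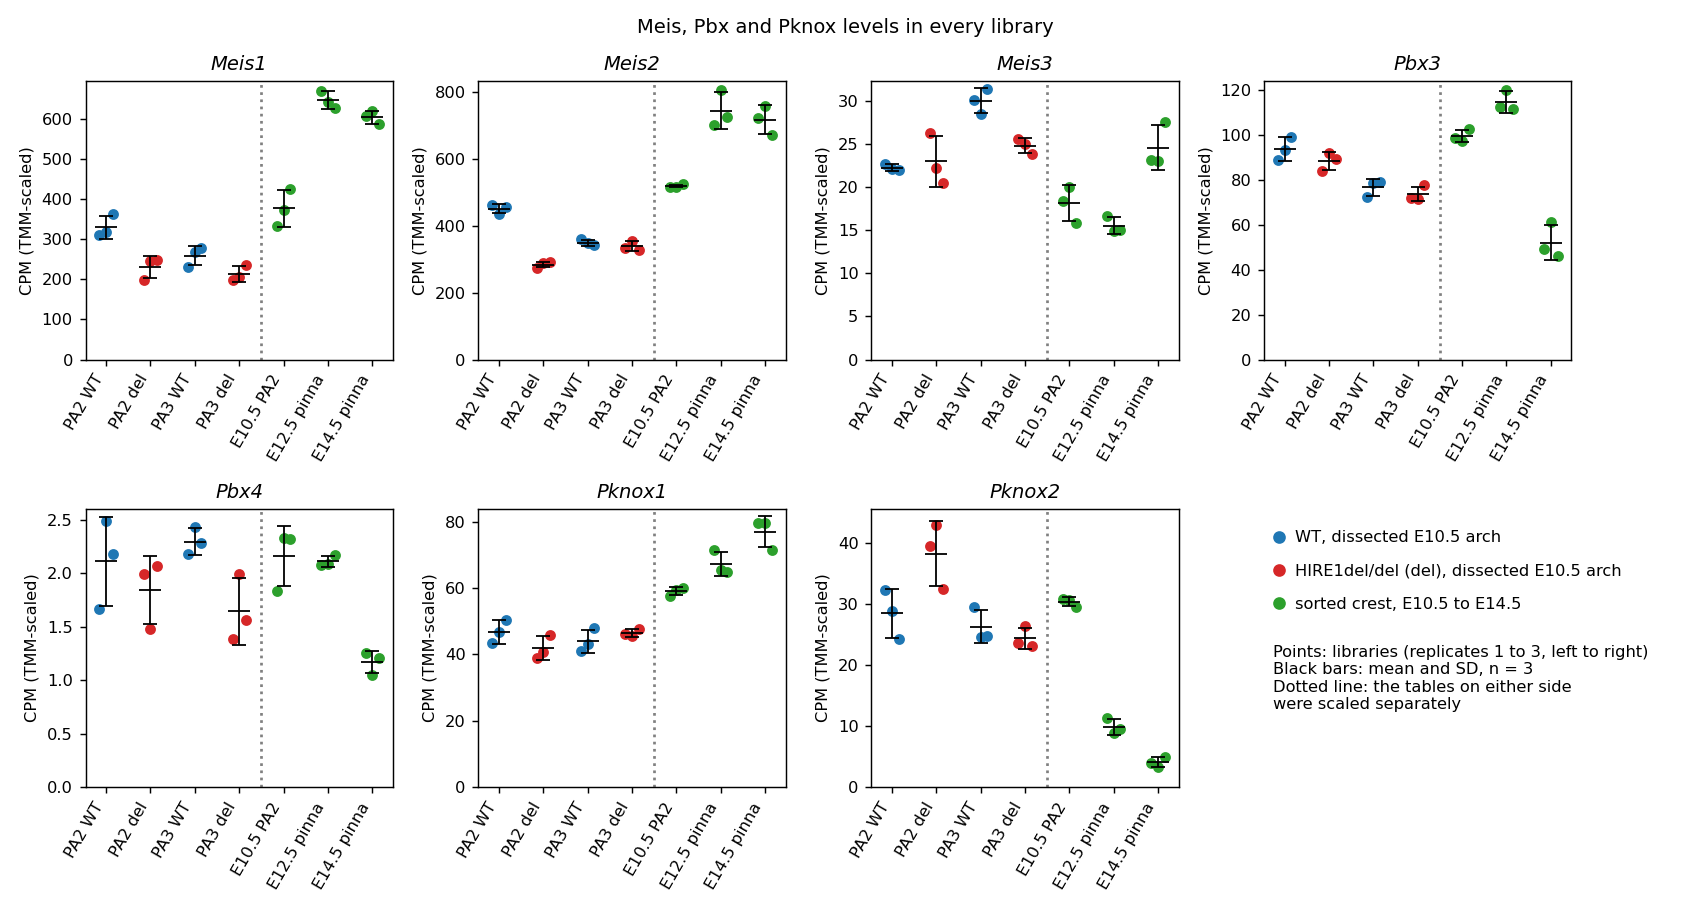
CPM of 7 cofactor genes (y axes, from 0) in the 21 libraries by group (x axis), with points for libraries and black bars for mean and SD (n = 3). Meis1 and Meis2 are low in HIRE1del/del PA2 and high in the pinna, while Pknox2 falls from 30.4 to 4.06 CPM on average between E10.5 and E14.5.

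Pbx2 was listed at 0 in 15 of the 21 libraries and had 19 counts in all, of which 13 fell in WT PA2 replicate 2. Its region was almost empty in both tables. The 11 other protein-coding genes listed within 100 kb of it, among them the widely expressed Rnf5, a ubiquitin ligase, and Atf6b, a stress-response transcription factor, had at most 24 counts in any library, and 5 of them had none. Pbx2 is therefore said only to be listed at or near 0. No level, fold or test is given for it, and the counts below refer to the other 7 members, all of which passed the filter of 1 CPM in at least 2 libraries.

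The first comparison asked how the cofactor genes stood in PA2 after loss of HIRE1. Meis1 and Meis2 fell, and the other 5 tested members did not pass the test. These 2 of 7 members, in a list chosen with earlier results known, stand beside 0.438% of all 14383 genes tested that were called in either direction, and 0.32% that were called lower. A gene is called where its Benjamini-Hochberg adjusted p over all genes tested, from edgeR's quasi-likelihood test, is under 0.05, and log2 FCs carry standard errors (SE) or 95% confidence intervals (CI) from that fit.

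Meis2, a Hox cofactor widely expressed in crest mesenchyme, had 461, 435 and 454 CPM in WT PA2 replicates 1 to 3 and 274, 287 and 290 CPM in HIRE1del/del PA2. The lowest WT library lay far above the highest deletion library. The level in HIRE1del/del PA2 was 63.0% of that in WT, with a log2 FC of -0.67 ± 0.05 (SE; edgeR quasi-likelihood test, adjusted p = 7.92e-06). By p-value Meis2 was number 4 of all genes tested.

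Meis1, the paralogue first found as a leukaemia integration site, had 309, 316 and 361 CPM in WT PA2 and 199, 245 and 247 CPM in HIRE1del/del PA2. The groups did not overlap. The deletion level was 70.0% of WT, with a log2 FC of -0.51 ± 0.10 (edgeR quasi-likelihood test, adjusted p = 0.0359). This call was lost when WT replicate 1, 2 or 3 was left out (adjusted p = 0.06, 0.0927 and 0.202 in edgeR) and when HIRE1del/del replicate 1 or 2 was left out (0.13 and 0.0891 in edgeR), with log2 FCs from -0.56 to -0.42. In each of the 4 arch groups the library numbered 1 was the lowest for Meis1 and the library numbered 3 the highest.

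Meis3, the third and least abundant Meis gene, had 22.7, 22.1 and 21.9 CPM in WT PA2 and 26.3, 22.3 and 20.5 CPM in HIRE1del/del PA2. The deletion libraries lay on both sides of the WT libraries. Its log2 FC was 0.05, with a CI from -0.14 to 0.23.

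Summed over the 3 Meis genes, the per-length level was 73.5 ± 2.97 RPKM in WT PA2 and 51.4 ± 2.34 RPKM in HIRE1del/del PA2, with no overlap. The Meis1 share of this sum was 42.4% ± 2.14 in WT and 42.5% ± 3.15 in the deletion. The share of Meis2 was 48.0% ± 1.70 and 43.3% ± 0.752, with no overlap. The share of Meis3 was 9.54% ± 0.476 in WT and 14.2% ± 2.50 in the deletion.

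Pbx3, the Pbx gene measured at a high level here, had 89.1, 93.2 and 99.4 CPM in WT PA2 and 84.2, 92.1 and 89.2 CPM in HIRE1del/del PA2. The groups overlapped, and the CI of its log2 FC ran from -0.21 to 0.04. Pbx4, a Pbx gene best known from the testis, had 1.67 to 2.49 CPM in WT and 1.48 to 2.07 CPM in the deletion, and its CI was wide, from -0.67 to 0.28. At this level no change in Pbx4 smaller than its interval was detectable.

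Pknox1 and Pknox2, also called Prep1 and Prep2, are the alternative Pbx partners to the Meis proteins. Pknox1 had 43.3, 46.6 and 50.4 CPM in WT PA2 and 38.9, 40.8 and 45.8 CPM in HIRE1del/del PA2, and the groups overlapped. Pknox2 had 32.3, 28.9 and 24.3 CPM in WT PA2 and 39.5, 42.9 and 32.5 CPM in the deletion. The lowest deletion library of Pknox2 was just above the highest WT library, and its log2 FC of 0.43 (CI from 0.17 to 0.69) did not pass the test (edgeR quasi-likelihood test, adjusted p = 0.257, unadjusted p = 0.00347). The Pknox2 share of the summed Pknox RPKM was 37.5% ± 5.12 in WT PA2 and 47.4% ± 5.39 in HIRE1del/del PA2, with ranges of 32.2% to 42.4% and 41.2% to 50.9%.

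Hox genes, the partners of these cofactors, were compared in the same fit. Of 15 Hox genes of paralogue groups 1 to 5, 9 were tested in the arch table, and 3 of them fell in HIRE1del/del PA2. Hoxa2 went from 78.3 to 5.87 CPM, a log2 FC of -3.74 ± 0.12 (edgeR quasi-likelihood test, adjusted p = 1.56e-09). Hoxa3, a Hox gene of PA3, went from 3.41 to 0.286 CPM, and Hoxb3 had a log2 FC of -0.90 ± 0.10, with adjusted p-values of 0.000544 and 0.000537 in edgeR. The 9 tested Hox genes had a median log2 FC of -0.59, beside -0.01 over all genes tested. Of these, Hoxb4, Hoxd3 and Hoxd4 had means below 1 CPM in both PA2 groups. They passed the filter only through PA3 libraries, so this median includes genes at low counts.

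None of the 8 tested genes of the other TALE families (Irx, Mkx and Tgif, which do not serve as Hox cofactors) passed the edgeR quasi-likelihood test in PA2, and their median log2 FC was 0.04. Pbxip1, an adaptor that binds Pbx proteins, had means of 31.6 CPM in WT PA2 and 32.6 CPM in HIRE1del/del PA2. The summed level of the other TALE genes was 265 to 275 CPM in WT and 272 to 276 CPM in the deletion.

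No crest mesenchyme, neuronal, glial, melanocyte or cartilage marker was called between genotypes in PA2 by edgeR. Their median log2 FCs were 0.21 for 7 crest mesenchyme markers, -0.49 for 5 neuronal markers and -0.42 for 2 tested glial markers. They were -0.39 for 2 tested melanocyte markers and 0.25 for 2 tested cartilage markers, beside -0.16 for the 7 members. In PA2 of both genotypes, 3 of the neuronal markers and the 2 tested melanocyte markers had means below 1 CPM. These passed the filter only with PA3 libraries, so the neuronal and melanocyte medians depend on low counts. The neuronal sum, made up mostly of Isl1, was 66.9 to 74.7 CPM in WT PA2 and 52.4 to 54.2 CPM in HIRE1del/del PA2, and the sum of the 4 cartilage markers was 1040 to 1230 CPM and 1313 to 1400 CPM, of which 1 marker was at 0 in all libraries. The crest mesenchyme sum overlapped, at 1025 to 1141 CPM and 1021 to 1161 CPM, but its genes did not move alike. Its most abundant gene, Pdgfra, had means of 538 CPM in WT and 440 CPM in the deletion, with overlap. Prrx2 overlapped too. Twist1, Prrx1, Dlx2, Dlx5 and Tfap2a were higher in every deletion library than in any WT library, with Dlx2 means of 51.0 and 69.7 CPM. The part of these lists in the Meis1 and Meis2 values was not tested.

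**Figure D2:**
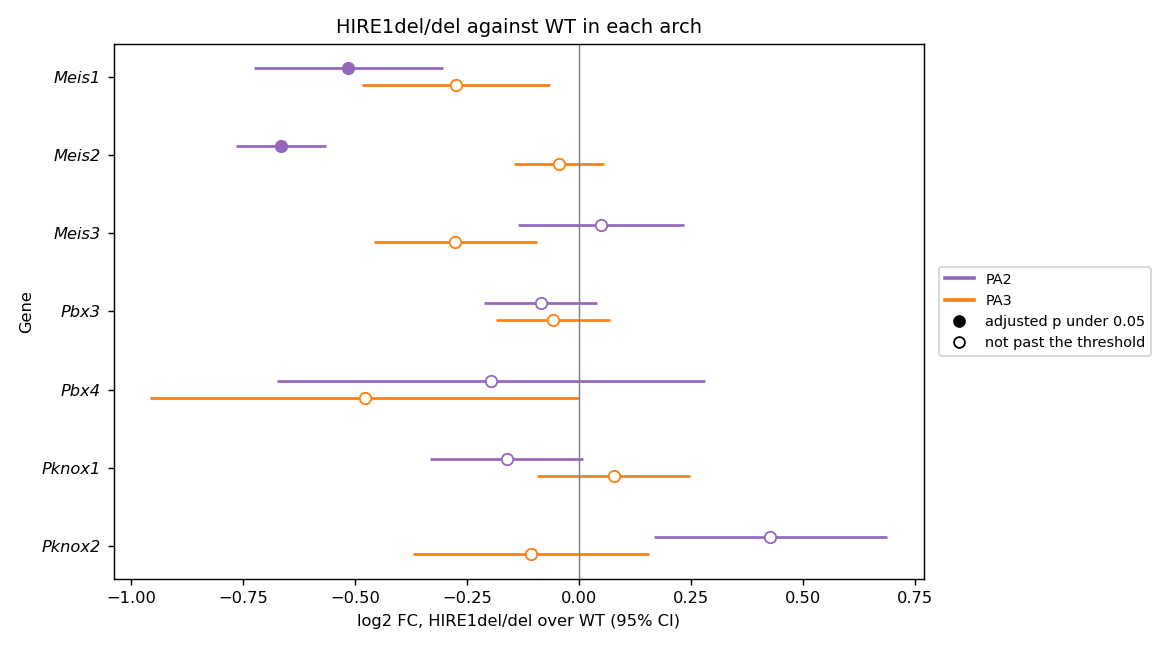
log2 FC of HIRE1del/del over WT (x axis) for 7 cofactor genes (y axis) in PA2 and PA3, with lines for the 95% CI and filled points for an adjusted p under 0.05 in edgeR. Only Meis1 and Meis2 in PA2 are filled, at -0.51 and -0.67.

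In PA3 no tested member was called between genotypes, beside 0.216% of all genes (0.0556% higher and 0.16% lower). The count of 0 was the same in edgeR, DESeq2 and limma-voom. Meis1 and Meis3 were the 2 members with an unadjusted p under 0.05 in edgeR.

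Meis2 had 360, 347 and 342 CPM in WT PA3 and 334, 356 and 327 CPM in HIRE1del/del PA3. The groups overlapped, and the log2 FC of -0.04 had a CI from -0.14 to 0.06. This interval leaves out the log2 FC of -0.67 measured in PA2.

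Meis1 had 231, 267 and 277 CPM in WT PA3 and 198, 206 and 236 CPM in the deletion, where 1 deletion library lay above the lowest WT library. Its log2 FC was -0.27, with a CI from -0.49 to -0.06 (edgeR quasi-likelihood test, adjusted p = 0.401). Meis3 had 30.1, 28.5 and 31.4 CPM in WT PA3 and 25.6, 25.0 and 23.8 CPM in HIRE1del/del PA3. These groups did not overlap, and the log2 FC of -0.28 did not pass the test (edgeR quasi-likelihood test, adjusted p = 0.317).

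Pbx3 was at 76.8 ± 3.74 CPM in WT and 73.8 ± 3.30 CPM in the deletion, and Pknox1 at 44.0 ± 3.55 and 46.4 ± 1.20 CPM. Pknox2 was at 26.3 ± 2.75 and 24.4 ± 1.73 CPM. Pbx4 was at 2.30 ± 0.125 and 1.65 ± 0.313 CPM, with no overlap, and its CI ran from -0.96 to 0.

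Hoxa2 and Hoxa3 were the Hox genes called in PA3, where 2 of 9 fell. Hoxa2 went from 61.4 to 23.8 CPM and Hoxa3 from 29.0 to 6.41 CPM, with adjusted p-values of 5.04e-05 and 0.00116 in edgeR. None of the 8 other TALE genes was called by edgeR. The Meis sum was 59.6 to 62.9 RPKM in WT PA3 and 53.1 to 55.5 RPKM in HIRE1del/del PA3.

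Whether the deletion acted differently in the arches was tested as the difference of the log2 FCs, PA2 minus PA3. One of 7 members was called, beside 0.0487% of all genes. It was Meis2, with a difference of -0.62 ± 0.07 (edgeR quasi-likelihood test, adjusted p = 0.00151), number 3 of all genes by p-value. Leaving out any of the 12 libraries kept this call, with differences from -0.65 to -0.58 over all alternatives.

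For Meis1 the difference was -0.24, with a CI from -0.54 to 0.06, so the arches were not shown to differ for it. Pknox2 had a difference of 0.53 (CI from 0.17 to 0.90) and Meis3 one of 0.33 (CI from 0.07 to 0.58), and neither passed the edgeR quasi-likelihood test (adjusted p = 0.887 for each). Pknox1, at -0.24 (CI from -0.48 to 0.00), Pbx3, at -0.03 (CI from -0.21 to 0.15), and Pbx4, at 0.28 (CI from -0.39 to 0.96), did not pass either. Hoxa2 was the Hox gene called for this difference, at -2.37 ± 0.16 (edgeR quasi-likelihood test, adjusted p = 1.56e-05).

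The same 12 libraries were compared between arches within each genotype. These comparisons share their libraries with those above, so their values are set side by side and are no separate evidence. In WT, Meis3 was higher in PA3, Meis1, Meis2 and Pbx3 were lower, and 3 members were not called. The 4 of 7 called compare with 36.5% of all genes called between the WT arches, 19.1% higher and 17.4% lower.

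Meis2 fell from 450 ± 13.4 CPM in WT PA2 to 349 ± 9.33 CPM in WT PA3, a log2 FC of -0.37 ± 0.05 (edgeR quasi-likelihood test, adjusted p = 6.09e-05). In HIRE1del/del embryos it went the other way, from 284 ± 8.69 CPM in PA2 to 339 ± 14.9 CPM in PA3, a log2 FC of 0.26 ± 0.05 (edgeR quasi-likelihood test, adjusted p = 0.00107). Both pairs of groups were apart. The order of the 4 groups was thus WT PA2, WT PA3, HIRE1del/del PA3 and HIRE1del/del PA2, and the 2 PA3 groups overlapped.

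Meis1 was at 329 ± 28.4 CPM in WT PA2 and 258 ± 24.0 CPM in WT PA3, with a log2 FC of -0.35 ± 0.10 (edgeR quasi-likelihood test, adjusted p = 0.0129). The call was lost without WT PA2 replicate 3 (0.0643) or without WT PA3 replicate 1 (0.0589). In HIRE1del/del the arches overlapped, at 230 ± 27.0 and 213 ± 20.0 CPM, and the CI of the log2 FC ran from -0.32 to 0.10. Meis1 was therefore ordered WT PA2, WT PA3, HIRE1del/del PA2 and HIRE1del/del PA3, with overlap of each group after the first with the next.

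Meis3 was at 22.2 ± 0.411 CPM in WT PA2 and 30.01 ± 1.43 CPM in WT PA3, 135% of the PA2 level (log2 FC 0.43 ± 0.08, edgeR quasi-likelihood test, adjusted p = 0.00154). In HIRE1del/del it was at 23 ± 2.97 and 24.8 ± 0.907 CPM, with a CI of the log2 FC from -0.08 to 0.29. WT PA3 was thus the highest of the 4 groups for Meis3, and HIRE1del/del PA2 overlapped both remaining groups.

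Pbx3 was lower in PA3 than in PA2 in both genotypes. The log2 FC was -0.29 ± 0.06 in WT and -0.26 ± 0.06 in HIRE1del/del (edgeR quasi-likelihood test, adjusted p = 0.00194 and 0.00404). The deletion shifted Pbx3 past the threshold in neither arch, and the test of the difference, given above, was not passed.

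In HIRE1del/del, 3 of 7 members were called between arches, beside 33.4% of all genes, 18.7% higher and 14.7% lower. The largest of these 3 differences was that of Pknox2, which was at 38.3 ± 5.33 CPM in PA2 and 24.4 ± 1.73 CPM in PA3 (log2 FC -0.65 ± 0.12, edgeR quasi-likelihood test, adjusted p = 0.00125). In WT the same gene was at 28.5 ± 4.05 and 26.3 ± 2.75 CPM and was not called. HIRE1del/del PA2 was the highest of the 4 groups for Pknox2, and the other 3 overlapped. That the arch difference was called in one genotype only does not show that it differed between them, as the test of that difference was not passed.

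Pknox1 had log2 FCs of -0.09 in WT and 0.15 in HIRE1del/del. The second of these was called when libraries with the same number were paired (adjusted p = 0.0485 in edgeR with the number as a block), and not otherwise (0.169). Pbx4 overlapped between arches in both genotypes.

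Among the Hox genes called between the WT arches, Hoxa3, Hoxb3, Hoxd3, Hoxb4, Hoxd4 and Hoxb2 were higher in PA3, and Hoxa2 and Hoxd1 were lower. Of 8 other TALE genes, Irx1 and Irx3 were higher and Irx4, Mkx, Tgif1 and Tgif2 lower in WT PA3. Marker genes also moved between the WT arches, with all 5 erythroid, 5 epithelial and 5 neuronal markers called higher in PA3. Of 7 crest mesenchyme markers, 5 were called lower, while Prrx2 was called higher, at means of 40.6 CPM in PA2 and 63.9 CPM in PA3. The crest mesenchyme sum was 1025 to 1141 CPM in WT PA2 and 665 to 834 CPM in WT PA3, while the neuronal sum was 66.9 to 74.7 and 143 to 194 CPM. Among HIRE1del/del arches all 5 markers of the same 3 lists were again higher in PA3. There 6 of 7 crest mesenchyme markers were called lower and Prrx2 again higher, at 45.4 CPM in PA2 and 64.2 CPM in PA3. The part of these markers in the arch differences of Meis1, Meis2, Meis3, Pbx3 and Pknox2 was not tested.

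**Figure D3:**
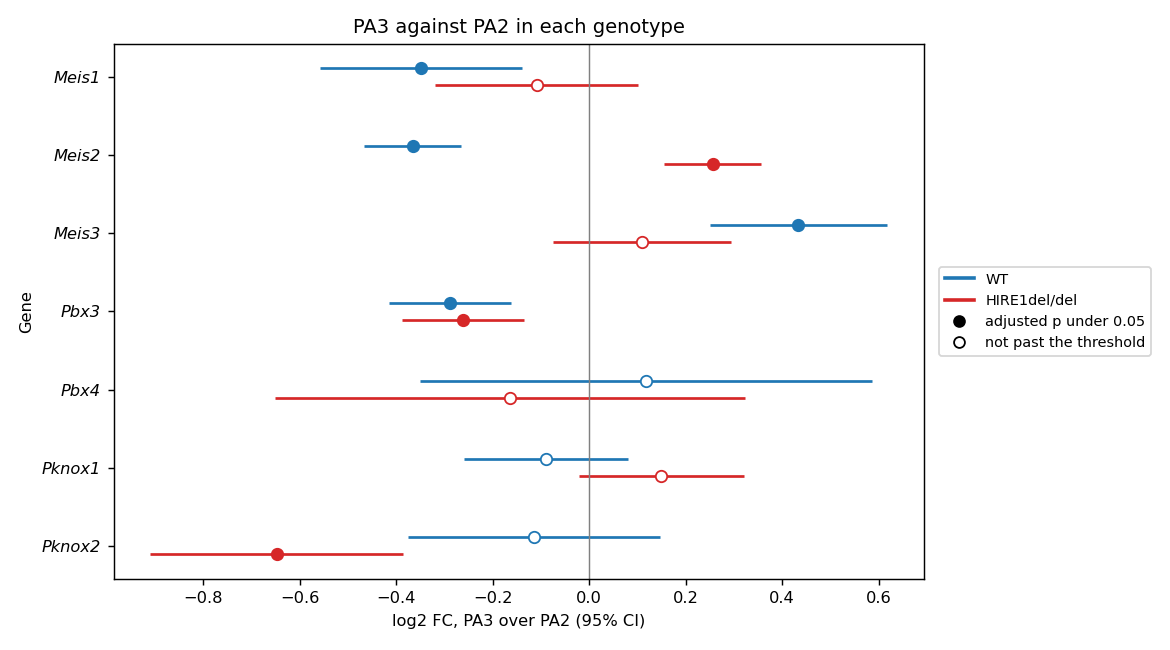
log2 FC of PA3 over PA2 (x axis) for 7 cofactor genes (y axis) in WT and HIRE1del/del embryos, with lines for the 95% CI and filled points for an adjusted p under 0.05 in edgeR. Meis2 lies at -0.37 in WT and 0.26 in HIRE1del/del, while Pbx3 lies at -0.29 and -0.26.

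The sorted series asked how the genes changed as PA2 crest gave rise to the pinna. The comparisons below share their groups in pairs, and the tables of the sorted series and of the arches were scaled separately, so no test was made between them. Between E10.5 PA2 and E12.5 pinna crest, Meis1, Meis2 and Pknox1 rose and Pknox2 fell. These 4 of 7 members compare with 68.8% of 13438 genes tested that were called, 35% higher and 33.7% lower. Between E12.5 and E14.5, Meis3 and Pknox1 rose and Pbx3, Pbx4 and Pknox2 fell, 5 of 7 members, beside 65.7% of all genes, 32.6% higher and 33.1% lower. Between E10.5 and E14.5 all 7 tested members were called, beside 82% of all genes, 42% higher and 40% lower. In each comparison the members' share is read against that high background.

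Meis1 had 333, 372 and 425 CPM in E10.5 PA2 crest, 670, 642 and 626 CPM in E12.5 pinna crest and 606, 619 and 586 CPM at E14.5. Its pinna libraries were all above its PA2 libraries. The rise to E12.5 was 0.78 ± 0.08 in log2 FC (edgeR quasi-likelihood test, adjusted p = 5.92e-06), and the later step, at -0.10, had a CI from -0.27 to 0.08.

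Meis2 had 517, 515 and 523 CPM at E10.5, 701, 806 and 725 CPM at E12.5 and 723, 756 and 672 CPM at E14.5. Its 2 pinna stages overlapped and lay above PA2. The log2 FC was 0.52 ± 0.07 to E12.5 (edgeR quasi-likelihood test, adjusted p = 3.17e-05) and -0.05 (CI from -0.20 to 0.09) from there to E14.5. With total counts only for scaling, the median log2 FC of all genes in the later step was -0.131, beside -0.008 with TMM. Both Meis1 (-0.22) and Meis2 (-0.18) were then called lower at E14.5 than at E12.5.

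Meis3 took another course, with 18.4, 20.0 and 15.9 CPM at E10.5, 16.6, 14.9 and 15.02 CPM at E12.5 and 23.1, 23.02 and 27.6 CPM at E14.5. E10.5 and E12.5 overlapped and all E14.5 libraries were higher. The first step, at -0.22, was not called (edgeR quasi-likelihood test, adjusted p = 0.0911) except without E10.5 replicate 3 (0.0296 at a log2 FC of -0.31), and the second was a rise of 0.67 ± 0.11 (adjusted p = 0.000234).

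**Figure D4:**
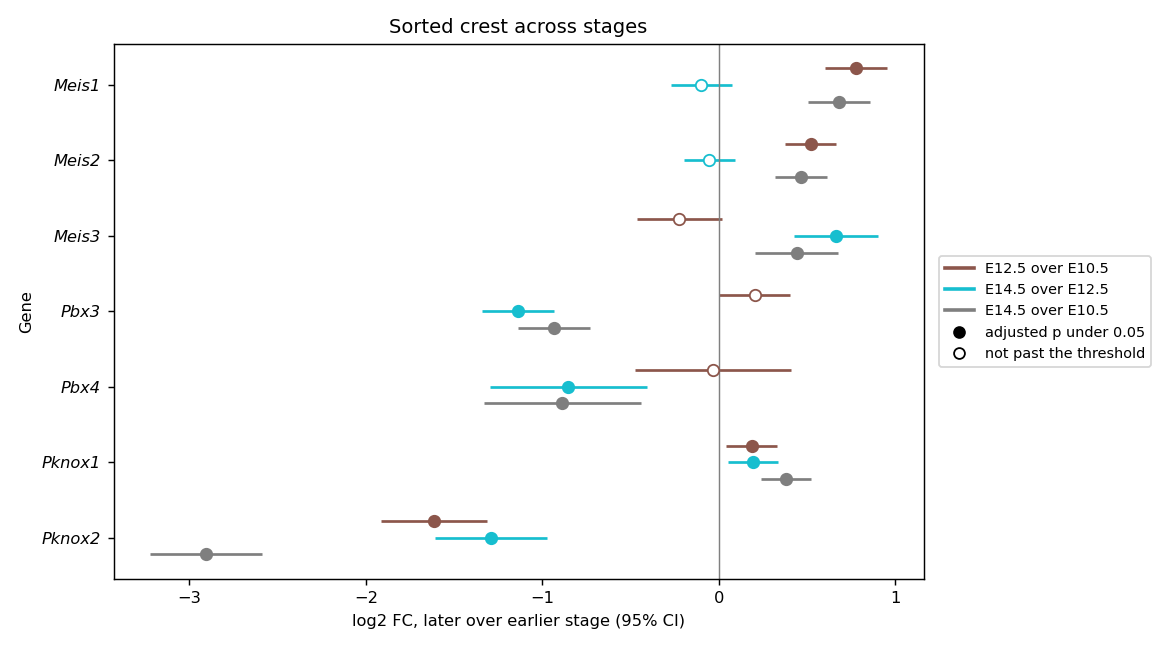
log2 FC between stages of sorted crest (x axis, later over earlier) for 7 cofactor genes (y axis), with lines for the 95% CI and filled points for an adjusted p under 0.05 in edgeR. Meis1 and Meis2 rise from E10.5 to E12.5, Pbx3 falls by 1.14 after E12.5, and Pknox2 falls at both steps.

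Pbx3 had 98.8, 97.6 and 103 CPM at E10.5 and 113, 120 and 112 CPM at E12.5, then 49.1, 61.1 and 46.2 CPM at E14.5. Its E14.5 libraries were far below all earlier ones. The second step was -1.14 ± 0.09 in log2 FC (edgeR quasi-likelihood test, adjusted p = 1.22e-06). The first, at 0.20, did not pass the test (adjusted p = 0.0667), though it did when scaled by total counts only (0.0329) or fitted on its 6 libraries alone (0.00757).

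Pbx4, at the low end of detection, had 1.84, 2.33 and 2.32 CPM at E10.5, 2.08, 2.09 and 2.18 CPM at E12.5 and 1.26, 1.05 and 1.20 CPM at E14.5. In CPM its E14.5 libraries were below all the others. Before scaling, their 50 to 57 counts overlapped the 55 to 71 at E10.5 and the 56 to 64 at E12.5, in deeper libraries. The log2 FC from E12.5 to E14.5 was -0.85 ± 0.20 (edgeR quasi-likelihood test, adjusted p = 0.00329), beside -0.03 for the step before.

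Pknox1 rose in small steps, with 57.6, 59.5 and 60.1 CPM at E10.5, 71.4, 65.4 and 65.0 CPM at E12.5 and 79.7, 79.8 and 71.6 CPM at E14.5. The 3 stages did not overlap, although the lowest E14.5 and the highest E12.5 library nearly met. From E10.5 to E14.5 the log2 FC was 0.38 ± 0.06 (edgeR quasi-likelihood test, adjusted p = 0.000175). Each single step was only just called, at 0.19 and 0.20 (adjusted p = 0.0239 and 0.0191 in edgeR). The first was lost without E10.5 replicate 1 (0.0759), E10.5 replicate 2 (0.0573) or E12.5 replicate 1 (0.0905), and without the filter on low counts (0.0591). The second was lost without E12.5 replicate 2 (0.0624), E12.5 replicate 3 (0.085), E14.5 replicate 1 (0.0619) or E14.5 replicate 2 (0.0526), without the filter (0.0538) and with total counts only (0.354).

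Pknox2 showed the largest fall of any member. It had 30.9, 30.7 and 29.6 CPM at E10.5, 11.4, 8.91 and 9.48 CPM at E12.5 and 4.03, 3.26 and 4.88 CPM at E14.5, with no overlap between stages. The first step left 32.7% of the E10.5 level (log2 FC -1.62 ± 0.14, adjusted p = 1.25e-06 in edgeR) and the second 40.9% of the E12.5 level (-1.29 ± 0.14, adjusted p = 1.43e-05). At E14.5 Pknox2 was at 13.3% of its E10.5 level, a log2 FC of -2.91 ± 0.14.

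The Pknox sum nevertheless moved little, at 12.9 ± 0.128 RPKM at E10.5, 11.1 ± 0.700 RPKM at E12.5 and 11.7 ± 0.583 RPKM at E14.5. Its makeup moved more. Pknox1 made up 66.3% ± 0.950 of it at E10.5, 87.3% ± 0.881 at E12.5 and 95.02% ± 1.23 at E14.5, with no overlap between stages. Of the summed RPKM of all 7 measured members, the Meis1 and Meis2 shares were 31.8% and 36.2% at E10.5 and 40.4% and 39.6% at E14.5. Pbx3 went from 14.6% ± 0.413 to 5.996% ± 0.675.

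**Figure D5:**
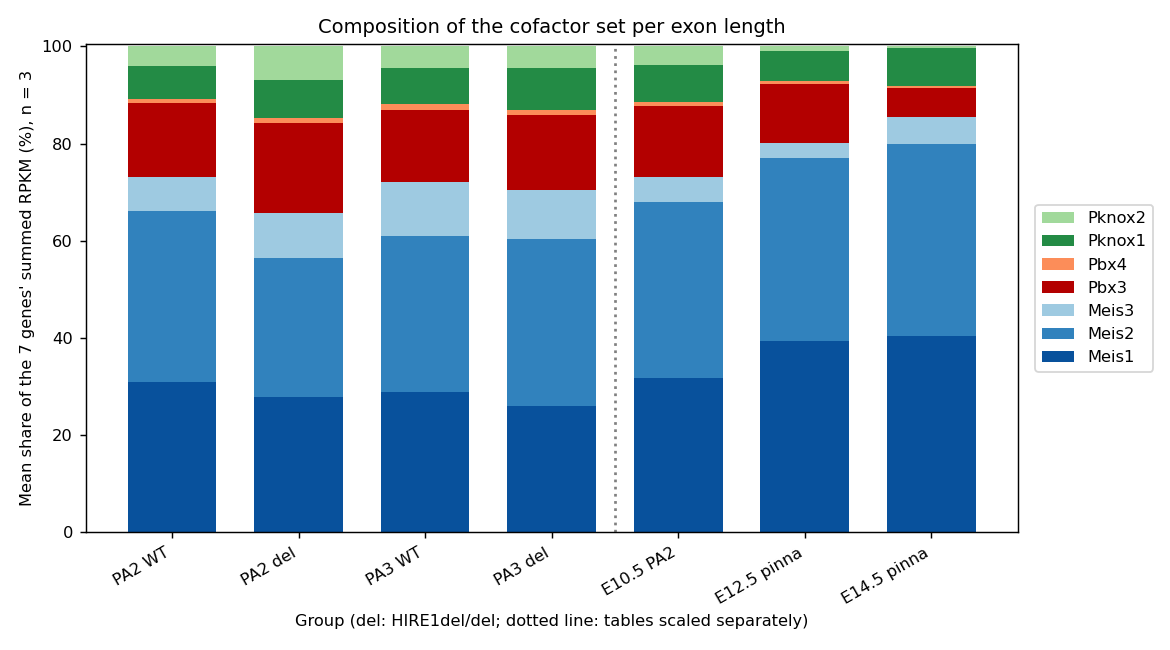
Mean share of each gene in the summed RPKM of the 7 measured cofactors (y axis, percent, n = 3) by group (x axis), as stacked bars. Meis1 and Meis2 fill most of every bar, the Pbx3 share shrinks from 14.6% at E10.5 to 5.996% at E14.5, and the Pknox2 share shrinks from 3.86% to 0.41%.

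The related genes also moved across the stages. Of the 8 other TALE genes tested, Irx1, Irx2, Irx3, Irx5, Irx6 and Mkx rose and Tgif2 fell from E10.5 to E12.5. Irx1, an Iroquois factor, went from 10.2 to 243 CPM, a log2 FC of 4.57 ± 0.22 (edgeR quasi-likelihood test, adjusted p = 2.04e-08). Their median log2 FC of 3.61 stands beside 0.01 over all genes. Pbxip1 rose from 37.9 to 59.5 CPM (0.65 ± 0.08, adjusted p = 3.28e-05 in edgeR) and was at 60.2 CPM at E14.5. Of 5 Hox genes tested in this table, Hoxa2 and Hoxa3 rose and Hoxb2 and Hoxb3 fell by E12.5, where Hoxa2 went from 125 to 212 CPM. From E12.5 to E14.5 Irx1 fell to 129 CPM, Mkx from 16.4 to 4.10 CPM, below its 8.20 CPM at E10.5, and Tgif1 to 62.5 CPM. None of the 8 was called higher by edgeR at this step. Hoxa2 fell to 155 CPM over this step, and Hoxb2 and Hoxb3 fell again, while Hoxa3 rose.

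Markers of other cell types moved with stage as well. All 3 melanocyte markers were called higher at each step, and their sum was 2.01 to 4.15 CPM at E10.5, 19.4 to 30.6 CPM at E12.5 and 272 to 311 CPM at E14.5. The neuronal sum was 33.7 to 39.9, 27.9 to 33.4 and 5.97 to 11.2 CPM. Of its 5 markers, 1 was at 0 in all E10.5 libraries and 1 in all E14.5 libraries. Its genes did not move alike, as Tubb3 and Isl1 were called lower and Stmn2 higher at the first step. At the second step only Tubb3 was called, again lower. Kdr was the only endothelial marker called at either step, at means of 3.26, 18.0 and 141 CPM, and 3 of the 4 tested were not called. The crest mesenchyme sum was 1629 to 1888, 3345 to 3611 and 3597 to 3993 CPM, mostly Pdgfra, at means of 1008, 2311 and 3004 CPM. From E10.5 to E12.5, 4 of the 7 crest mesenchyme markers were called higher, and Dlx2 and Tfap2a lower. From E12.5 to E14.5, 3 of the 7 were called higher, and Twist1, Prrx1, Dlx2 and Dlx5 lower. The cartilage sum was 1583 to 1624, 628 to 682 and 334 to 369 CPM, with all 3 tested markers called lower at the first step and 2 higher and 1 lower at the second. The glial sum was 10.6 to 12.6, 11.5 to 12.6 and 32.6 to 45.2 CPM, with all 3 tested markers called higher at the second step. One cartilage marker and 1 glial marker were at 0 in all libraries of each stage. The part of these lists in the stage differences of the members was not tested.

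For each member the genes whose log2 CPM was most like it over the 12 arch libraries are given as a description, since the libraries share groups, tissue and scaling. Meis2 was most like Fzd4, a Wnt receptor (r = 0.953), Cntfr, a cytokine receptor (0.937), and Herc6 (0.907). Meis1 was most like Chst3 (0.918), Sfrp2, a Wnt antagonist (0.911), and Psd3 (0.903). Pbx3 was most like Fgfr2, a fibroblast growth factor receptor (0.972), Fhip2a (0.972) and Prpf38b (0.971), among 288 genes with r of at least 0.9. Meis3 was most like Pofut2 (0.945), Mfge8 (0.929) and Casr (0.928), and Pknox2 was most like Tcof1 (0.961), Dhx30 (0.95) and Carm1 (0.941). Pbx4 and Pknox1 had no gene at 0.9 or above, with highest values of 0.84 and 0.873.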

How the data were processed

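RNA-seq of 21 libraries was analysed from 2 tables of raw counts per gene as deposited. The authors aligned 50-base reads to GRCm38 with QuasR and counted them over UCSC knownGene exons. The submitters' notes list bcl2fastq 2.17 and 2.20. The labels call the libraries unstranded, yet reads were counted in the orientation opposite to the gene, so the strand of the counts is unclear. Genes with 1 CPM in at least 2 libraries were tested, 14383 in the arch table and 13438 in the sorted series, with edgeR 4.0.16 (TMM factors, quasi-likelihood test, 1 mean per group, Benjamini-Hochberg adjustment over all genes tested). RPKM used the exon lengths in the tables. For Pknox2 this was 7023 bases, where GENCODE gives 10335, and for Meis2 12764 bases, where GENCODE gives 12043. The lengths of the other members were the same in both. RPKM levels and shares that include Pknox2 or Meis2 therefore depend on the annotation. All 8 members were named in every comparison, listed genes where called, and similar genes at r of at least 0.9 over 12 libraries. DESeq2 1.42.0, limma 3.58.1, other scalings and filters, a replicate block and leaving out each library were alternatives. The fits were tested on simulated data. Replicates differed beyond counting noise (chi-square per degree of freedom 6.68 to 44.2). Intervals on log2 FCs come from the quasi-likelihood fit and include the estimated spread between replicates. PA2 and PA3 libraries of the same genotype and number deviated together (correlations 0.167 to 0.355 in all 6 pairs). Those numbers served as a block in alternative fits only, and the main tests used no block. A pair of different genotype and number, WT PA2 replicate 1 and HIRE1del/del PA3 replicate 2, reached 0.262. The labels do not state a shared origin. Across genotypes or stages, libraries of the same number showed mixed correlations, from -0.298 to 0.232. Between genotypes these were 0.111 to 0.232 for libraries numbered 3 and -0.186 to -0.039 for those numbered 2. The tables hold no columns of other samples. Members and lists were chosen with earlier results of these data known.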

Additional observations from a re-analysis of the deposited data

Results flagged for a closer look

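The effect of the HIRE1 deletion on Meis2 differed between PA2 and PA3 by a test of the difference itself, at -0.62 on the log2 scale (95% CI from -0.76 to -0.48, edgeR quasi-likelihood test, adjusted p = 0.00151). All 3 HIRE1del/del libraries were below all 3 WT libraries in PA2, and in PA3 the groups overlapped. Over the 20 alternatives the difference ran from -0.65 to -0.58, with adjusted p-values from 1.35e-16 to 0.0101. No other member met a rule for a closer look, and groups of 3 libraries were too small to look for outlying samples.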

How the results depend on the processing

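Of 840 recomputed values for single members, 9 changed sign on leaving out a library and 1 under another setting, and 14 and 3 lost their call. The called members in PA2 between genotypes numbered 1 to 2 when libraries were left out, beside 2 with all libraries, since Meis1 was lost in 5 of 6 cases. The sign changes concerned log2 values near 0 that were not called. Leaving out a library gave -0.057 to 0.127 for Meis3 between genotypes in PA2, -0.064 to 0.016 for the Pbx3 difference between arches, -0.023 to 0.249 for Pbx4 between WT arches, -0.139 to 0.022 for Pbx4 from E10.5 to E12.5 (0.022 with total counts only) and -0.095 to 0.007 for Meis2 from E12.5 to E14.5. The cause was not tested. Scaling by total counts moved group means by a factor of down to 0.955, and the split of all genes from E12.5 to E14.5 from 4382 higher and 4442 lower to 3517 and 5613.

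With the replicate number as a block, Pknox1 was called between the HIRE1del/del arches (0.15 on the log2 scale, adjusted p = 0.0485 in edgeR), or 0.0486 with genotype and number together. The block changed no other member's call. It took the genes called between genotypes from 17 higher and 46 lower to 32 and 73 in PA2, and from 8 and 23 to 20 and 34 in PA3. For the difference between arches, 0 higher and 7 lower became 1 and 11, or 6 and 20 with genotype and number together. DESeq2 gave 55 and 109 in PA2, 41 and 52 in PA3 and 3 and 24 for the difference. In PA2, leaving out a library gave as few as 7 higher (7 and 28, without WT replicate 2). It gave as few as 22 lower (11 and 22, without HIRE1del/del replicate 2), beside 8 and 25 without WT replicate 3. In PA3 the fewest were 2 and 6, without HIRE1del/del replicate 2. For the difference the fewest were 0 and 3, without PA2 WT replicate 1, PA2 HIRE1del/del replicate 2 or PA3 HIRE1del/del replicate 2. The most for the difference were 0 and 12, without PA2 HIRE1del/del replicate 3. Numbers shared across genotypes or stages did not correlate in every pair, from -0.298 to 0.232. Depth limits Pbx4, with 37 to 71 counts a library.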
